A study of Mus musculus with 20 samples.

Results

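Livers of 15 male BALB/c mice injected with streptozotocin (STZ) were compared, as 1 pooled group, with livers of 5 untreated mice of the same strain and sex. The 15 arrays were those labelled as STZ-treated diabetic, 0.1% phloridzin or 0.5% phloridzin, 5 each, and the comparison used all 20 arrays of the series, with 1 array per mouse. Mice were 6 weeks old on arrival. STZ was given as a single intraperitoneal dose of 185 mg/kg in citrate buffer, and mice whose non-fasting glucose had reached 330 to 590 mg/dL a week later were allotted to the diets. The STZ group then ate AIN93G for 14 days, the same diet that the untreated mice received, and the other STZ mice ate AIN93G with 0.1% or 0.5% phloridzin, a plant glycoside that blocks sodium-glucose cotransporters. Untreated mice had no injection at all, so STZ, its injection and the choice of mice by glucose cannot be told apart. Each group had 6 mice, of which 5 had an array.

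STZ enters the insulin-producing beta cell through a glucose transporter and kills it, which leaves the liver with little insulin. Insulin normally holds back hepatic glucose output, amino acid breakdown and fatty acid oxidation, and it supports the synthesis of lipid and of secreted proteins. The hepatocyte folds those secreted proteins in the endoplasmic reticulum (ER), where chaperones, the translocon and N-glycosylation enzymes act in sequence, and the unfolded protein response adjusts their supply through the sensors IRE1, PERK and ATF6.

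Values are the deposited linear signals of 1 probe set per gene, with a mean of 100 per array after the lowest and highest 2% of probe sets are dropped. Genes with a Benjamini-Hochberg adjusted p under 0.05 were called, from a limma fit of log2(signal + 16) over 12947 genes. Log2 differences are the mean of the STZ groups minus that of the untreated group on that scale, with 15 STZ and 5 untreated mice behind each, and ± is the standard error (SE) of the fit. The added 16 understates the change of dim genes, and the number of arrays limits the precision. On 0.1% phloridzin replicate 4 the spike-in controls bioD and cre read 14067 and 33369. The other 14 STZ arrays read 3097 to 4431 and 8881 to 14732, and the untreated arrays 3997 to 4794 and 12191 to 15462. The 5′ to 3′ signal ratio of the actin control was 0.403 to 0.619 on untreated and 0.396 to 0.595 on STZ arrays. STZ replicate 1 had a Cyp4a14 signal of 48.9 against 2710 to 5867 on the other 4 arrays of its group. Counts without each of these 2 arrays are given with the totals.

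The first question was how many genes differed by a small amount that the pooled arrays could resolve. Between the 15 STZ and the 5 untreated livers, 2995 of 12947 genes were called (23.1%), 1413 higher (10.9%) and 1582 lower (12.2%). Of these, 2057 differed by less than 1.5-fold (15.9% of genes tested), 936 of them higher (7.23%) and 1121 lower (8.66%). A further 303 rose and 320 fell by 1.5 to 2-fold, and 174 rose and 141 fell by 2-fold or more. Calls of less than 1.25-fold numbered 572, and the smallest called change was 1.13-fold. With 1 added to the signal in place of 16, calls under 1.5-fold numbered 1577. The median 95% interval of a gene was ± 0.24 log2 units (1.18-fold), against ± 0.30 (1.23-fold) for a single STZ group of 5 against the same controls.

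Each single STZ group gave fewer calls in the same fit. STZ alone gave 1785 (13.8%), of which 907 were under 1.5-fold, 0.1% phloridzin gave 2168 (16.7%), of which 1226 were, and 0.5% phloridzin gave 1646 (12.7%), of which 811 were. These comparisons share the 5 untreated arrays with the pooled one. Their counts moved with single arrays: STZ alone gave 1171 without its replicate 5, and 0.5% phloridzin gave 944 and 980 without its replicates 1 and 5 and 1084 without untreated replicate 1. Among the 3 STZ groups themselves, the limma F test called 0 genes, with 714 at an unadjusted p under 0.05 and a smallest adjusted p of 0.885. Pairwise, 0 genes were called as well, with 685, 622 and 840 at an unadjusted p under 0.05 for 0.1% against STZ, 0.5% against STZ and 0.5% against 0.1%. With intervals of about ± 0.30 log2 units for 5 arrays against 5, the 3 diets are not shown to share 1 level.

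**Figure D1:**
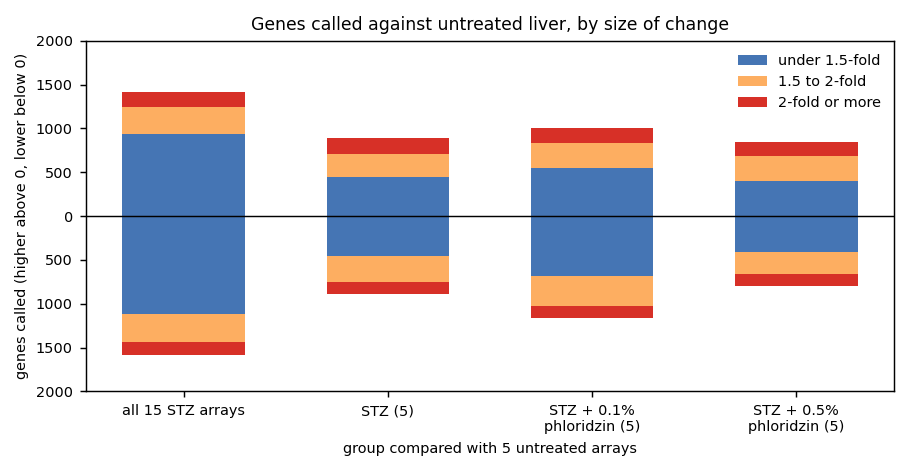
Genes called against the 5 untreated arrays (limma adjusted p under 0.05), stacked by size of change, with genes called higher above 0 and genes called lower below. The bar of all 15 STZ arrays holds 2057 changes under 1.5-fold, against 811 to 1226 in the bars of the single groups, while changes of 2-fold or more are similar in number.

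The counts moved more with single untreated arrays than with single STZ arrays. Leaving out 1 untreated array lowered the pooled count to between 2255 and 2540, whereas leaving out 1 STZ array gave 2739 to 3294. Without 0.1% phloridzin replicate 4 the pooled comparison called 2924 genes, 2021 of them under 1.5-fold, and without STZ replicate 1 it called 3144 and 2152. Falls under 1.5-fold numbered 734 without untreated replicate 3, against 1121. The split of directions depended on the scaling: with quantile normalization 1530 rose and 1471 fell, and with each array centred on its median 1556 rose and 1109 fell, or 58.4% higher against 47.2%. Among changes under 1.5-fold, 1034 rose and 1033 fell with quantile normalization, and 1008 rose and 729 fell with median centring. The 15 arrays lay all above or all below the 5 untreated arrays for 632 genes (4.88%), 236 of which changed by less than 1.5-fold. Of the 2057 genes under 1.5-fold, 1128 had a second probe set, which moved in the same direction for 941 (83.4%), was itself called in that direction for 311 and was called in the opposite direction for 8. Among uncalled genes the second probe set moved the same way for 2707 of 4276 (63.3%).

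The small changes with the smallest p are described first, 10 rises and 10 falls. They were taken among calls under 1.5-fold with mean signals of at least 100 in both groups. Of the rises, Commd3, which encodes a COMM domain protein of endosomal sorting, had signals of 869, 812, 745, 853 and 756 in the untreated mice and of 1044 to 1344, median 1216, in the STZ mice. Every STZ array was above the brightest untreated array, and the gene rose 1.48-fold (0.56 ± 0.070 log2 units, SE, adjusted p = 1.18e-05). Gss, glutathione synthetase, had signals of 326, 348, 376, 362 and 341 in the untreated mice and of 446 to 604, median 512, in the STZ mice. The groups were again fully apart, with a 1.44-fold rise (0.52 ± 0.068 log2 units, SE, adjusted p = 1.95e-05), and a second probe set read 0.60. Txnrd1, the cytosolic thioredoxin reductase, had signals of 582, 578, 443, 633 and 532 in the untreated mice and of 727 to 939, median 773, in the STZ mice. Its dimmest STZ liver was brighter than all untreated livers, although the untreated ones varied among themselves, and the rise was 1.41-fold (0.50 ± 0.075 log2 units, SE, adjusted p = 0.000109).

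Pdha1, a subunit of the pyruvate dehydrogenase complex that links glycolysis to the citric acid cycle, had signals of 672, 714, 769, 793 and 898 in the untreated mice and of 989 to 1355, median 1078, in the STZ mice. Untreated replicate 5 came nearest to the STZ range without reaching it, and Pdha1 rose 1.41-fold (0.49 ± 0.078 log2 units, SE, adjusted p = 0.000171). Pgm1, a phosphoglucomutase of glycogen and glucose metabolism, had signals of 979.7, 933, 872, 1013 and 958 in the untreated mice and of 1182 to 1375, median 1242, in the STZ mice. The groups did not overlap, and the rise was 1.32-fold (0.40 ± 0.060 log2 units, SE, adjusted p = 0.000109). Cd47, the surface protein that restrains phagocytosis, had signals of 574, 655, 625, 614 and 645 in the untreated mice and of 764 to 989, median 875, in the STZ mice. No array of either group crossed into the other, with a rise of 1.38-fold (0.47 ± 0.070 log2 units, SE, adjusted p = 0.000103). Mif, a cytokine with tautomerase activity and near-identical pseudogene copies that a probe may also read, had signals of 2158, 2178, 2272, 2239 and 2271 in the untreated mice and of 2792 to 3855, median 3232, in the STZ mice. The untreated arrays were almost equal and all lower, and the rise was 1.47-fold (0.56 ± 0.080 log2 units, SE, adjusted p = 5.81e-05), although the average of its probe sets was 0.17 and not called.

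The other 3 rises were Rnf14, a ubiquitin ligase gene (0.52, adjusted p = 0.000136), Avpi1, a vasopressin-induced gene (0.57, adjusted p = 0.000149), and Serhl, a serine hydrolase-like gene (0.56, adjusted p = 6.10e-05). Serhl alone of these 10 overlapped, with 14 of 15 STZ arrays above the untreated range. Second probe sets of Commd3 (0.23), Cd47 (0.13), Txnrd1 (0.098) and Pgm1 (0.23) were not called. Those of Gss, Pdha1 (0.41), Rnf14 (0.41) and Serhl (0.41) were called higher.

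Among the 10 falls, Cyp2j5, a cytochrome P450 that oxidises arachidonic acid, had signals of 4189, 4219, 4181, 4252 and 3819.7 in the untreated mice and of 2343 to 3223, median 2766, in the STZ mice. All STZ livers were dimmer than the dimmest untreated liver, and the fall was 1.49-fold (−0.57 ± 0.075 log2 units, SE, adjusted p = 2.27e-05). A second probe set read −0.82. Hao1, the peroxisomal glycolate oxidase of liver, had signals of 3899, 3538, 3821, 3225 and 3646 in the untreated mice and of 2131 to 2944, median 2388, in the STZ mice. The groups did not touch, with a 1.49-fold fall (−0.57 ± 0.080 log2 units, SE, adjusted p = 4.52e-05). Caprin1, an RNA-binding protein of stress granules, had signals of 2412, 2351, 2926, 2332 and 2732 in the untreated mice and of 1425 to 1948, median 1707, in the STZ mice. Here too the brightest STZ liver was below every untreated one, for a fall of 1.5-fold (−0.58 ± 0.085 log2 units, SE, adjusted p = 7.74e-05).

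Cnpy2, an ER-resident canopy protein, had signals of 1701, 1753, 2128, 1803 and 2397 in the untreated mice and of 1125 to 1514, median 1289, in the STZ mice. Untreated replicate 5 was the brightest and no STZ array reached the untreated range, with a 1.5-fold fall (−0.58 ± 0.088 log2 units, SE, adjusted p = 0.000112). Reln, the extracellular glycoprotein reelin that stellate cells make in liver, had signals of 718, 745, 761, 897 and 997 in the untreated mice and of 463 to 647, median 558, in the STZ mice. The groups were apart and the fall was 1.49-fold (−0.57 ± 0.089 log2 units, SE, adjusted p = 0.000149), although the average of its probe sets was −0.25 and not called. Perp, a desmosomal membrane protein and p53 target, had signals of 699.6, 682, 836, 801 and 720.4 in the untreated mice and of 404 to 616, median 487, in the STZ mice. Its STZ arrays were all dimmer than its untreated arrays, by 1.48-fold (−0.56 ± 0.088 log2 units, SE, adjusted p = 0.000152).

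The remaining falls were Rras2, a Ras-like GTPase (−0.56, adjusted p = 4.10e-05), Rbbp4, a histone-binding protein of chromatin complexes (−0.53, adjusted p = 0.000109), Cd164, a sialomucin (−0.52, adjusted p = 0.000132), and Osbpl8, a lipid-transfer protein of the ER (−0.55, adjusted p = 0.000166). All 15 STZ arrays were below the untreated range for each of the 10 falls, which the choice by smallest p favours. Second probe sets of Rras2 (−0.027) and Rbbp4 (−0.32) were not called. Those of Cyp2j5, Caprin1 (−0.40) and Cnpy2 (−0.45) were called lower.

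**Figure D2:**
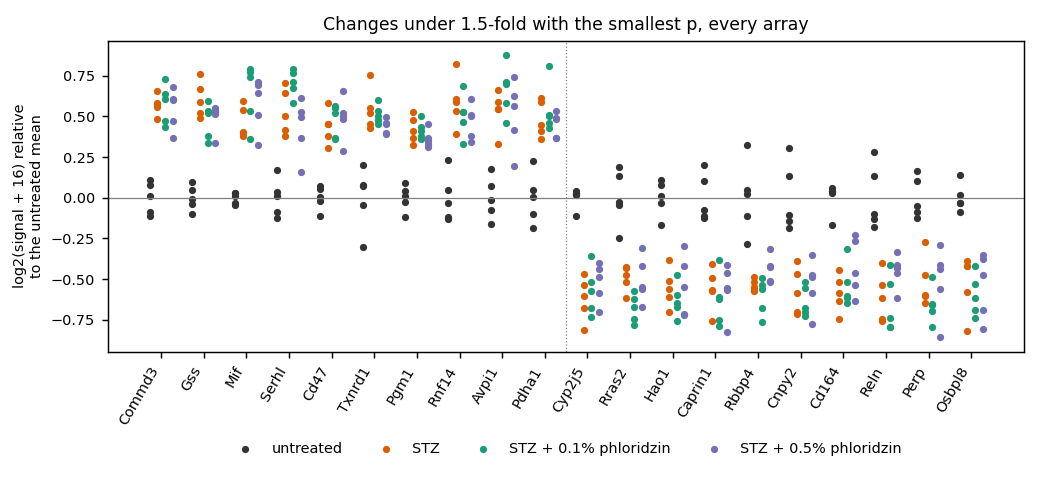
Every array's log2(signal + 16) relative to the untreated mean for the 10 rises (left of the dotted line) and 10 falls (right) under 1.5-fold with the smallest p, by group. Of the 20 genes, Serhl alone has an STZ array inside the untreated range, and within a gene the colours of the 3 STZ groups are mixed.

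The secretory pathway was the largest group of falls among the 28 pathway lists. Of 41 genes of ER chaperones and the unfolded protein response, all measured, 22 fell and 3 rose, 11 and 2 of them by less than 1.5-fold, with a median of −0.35 log2 units against −0.037 over all genes tested. Of 43 measured genes of the translocon, signal peptidase and N-glycosylation, out of 47 listed, 19 fell and 2 rose, and 18 of the 19 falls were under 1.5-fold. Of 40 measured genes of COPI and COPII vesicle transport, out of 41 listed, 11 fell and 0 rose, 9 of them by less than 1.5-fold. These shares called lower, 53.7%, 44.2% and 27.5% against 12.2% of all genes, were the highest of the 28 lists. The mean of the chaperone list was below all untreated arrays on 14 of 15 STZ arrays, that of the translocon list on 13 and that of the vesicle list on 13.

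**Figure D3:**
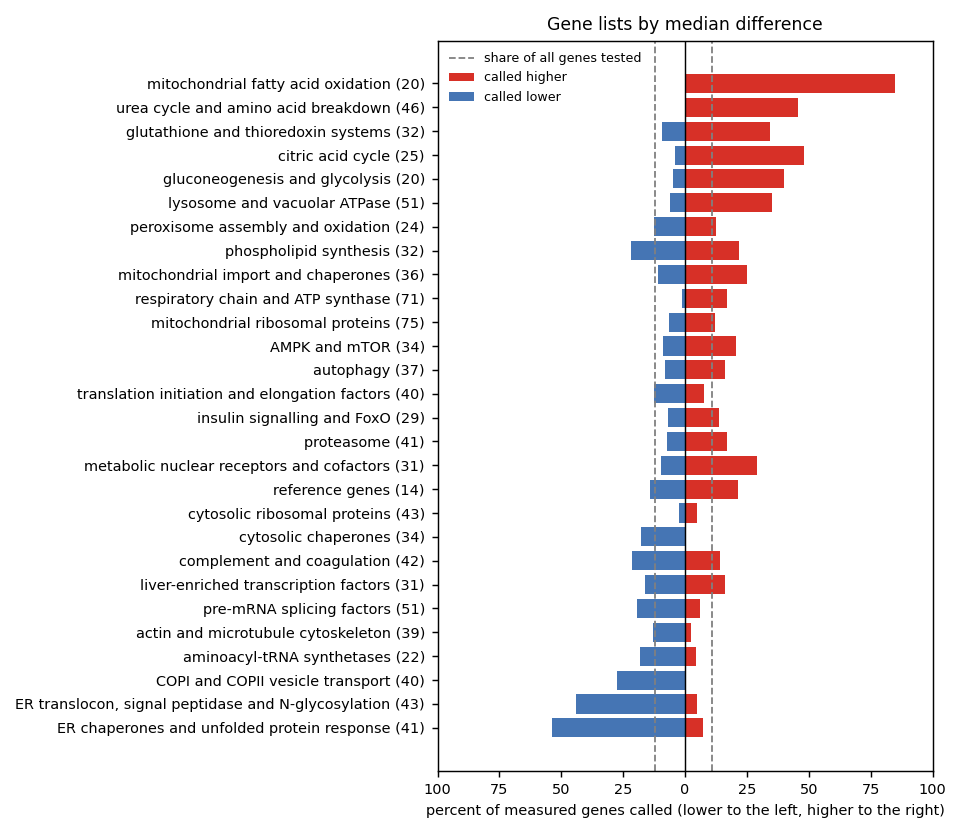
Percent of measured genes of each pathway list called lower (blue, to the left) and higher (red, to the right) in all 15 STZ arrays against untreated, with the number measured in brackets and lists ordered by median difference. Dashed lines mark the share of all genes tested, 12.2% lower and 10.9% higher. The 3 secretory lists stand at the bottom and mitochondrial fatty acid oxidation at the top.

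Chaperone promoters are known for the ER stress response element, a pair of half-sites that bind the factor NF-Y and the active forms of ATF6 and XBP1. Promoter windows of 300 bases, 250 before and 50 after the RefSeq start site (GRCm38.p6), were searched on both strands for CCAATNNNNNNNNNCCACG. Of 27025 genes with a window, 37 held it (0.137%), among them 10 of the 36 chaperone list genes that had a window (27.8%). Of the matched list genes that were measured and fell, Derl3, Hsp90b1 and Ero1b are not shown. Stretches from 5 others are given, with the match in capitals and each stretch read 5′ to 3′ along the gene's strand. They lie at chr2:34771985-34772083 (plus strand) for Hspa5, chr19:6046492-6046575 (plus) for Syvn1, chr15:88819480-88819578 (plus) for Creld2, chr8:84847035-84847133 (minus) for Calr and chr11:50325760-50325858 (minus) for Canx.
Hspa5: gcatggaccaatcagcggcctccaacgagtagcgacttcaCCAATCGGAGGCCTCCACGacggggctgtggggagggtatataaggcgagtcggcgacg
Syvn1: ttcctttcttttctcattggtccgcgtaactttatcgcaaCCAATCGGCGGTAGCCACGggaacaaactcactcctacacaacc
Creld2: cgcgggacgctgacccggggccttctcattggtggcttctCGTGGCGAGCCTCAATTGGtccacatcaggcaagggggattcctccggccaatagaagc
Calr: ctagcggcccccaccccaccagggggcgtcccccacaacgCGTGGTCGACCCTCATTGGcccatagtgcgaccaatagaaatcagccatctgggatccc
Canx: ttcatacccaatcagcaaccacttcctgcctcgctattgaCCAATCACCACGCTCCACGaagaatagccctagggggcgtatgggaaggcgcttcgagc
The match lies in the gene's direction in Hspa5, Syvn1 and Canx and on the opposite strand in Creld2 and Calr, and it ends 25 to 143 bases before the start site. Of the 16 genes with a match that were tested, 11 fell, 1 rose and 4 were not called, with a median of −0.39, against 12.2% of all genes called lower and 10.9% higher. Of these 16 genes, 10 belong to the chaperone list, of which 53.7% of measured genes were lower, so the count largely repeats that list. The part of the motif was not tested. Those outside the chaperone list were Acacb, an acetyl-CoA carboxylase of mitochondria (−0.88, adjusted p = 0.00747), Alg12, a mannosyltransferase (−0.52, adjusted p = 0.0207), Pan2, of a deadenylase (−0.40, adjusted p = 0.0368), and Acnat2, an acyltransferase (1.10, adjusted p = 0.000454), with Adcy3 (−0.077) and Spats2l (0.064) not called. When single arrays were left out, the call was lost for Alg12 without untreated replicate 1 or 5 (adjusted p up to 0.0653) and Pan2 in 8 of 20 such fits (4 with an untreated array left out, adjusted p up to 0.116). Under median centring, the call of Pan2 was lost. A match is a run of letters and shows no binding.

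The lead chaperone of this set, Hspa5 (BiP), which holds the 3 sensors inactive, had signals of 7168, 6061, 6581, 5789 and 6736 in the untreated mice and of 2931 to 6490.2, median 3952, in the STZ mice. All but 1 STZ array were below the untreated range, and Hspa5 fell 1.56-fold (−0.65 ± 0.12 log2 units, SE, adjusted p = 0.000968), with −0.51 in STZ alone, −0.64 with 0.1% and −0.79 with 0.5% phloridzin. Calr, a lectin chaperone that binds calcium, had signals of 6304, 5726, 5568, 5751 and 6227 in the untreated mice and of 3067 to 5429, median 3999, in the STZ mice. Its groups did not overlap, and it fell 1.47-fold (−0.55 ± 0.12 log2 units, SE, adjusted p = 0.00174). The related membrane lectin Canx had signals of 3055, 2623, 2827, 2659 and 2613 in the untreated mice and of 1847 to 2491, median 2261, in the STZ mice. It was lower on all 15 arrays by a smaller amount, 1.25-fold (−0.32 ± 0.080 log2 units, SE, adjusted p = 0.00676).

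Syvn1, the ubiquitin ligase of ER-associated degradation, had signals of 1007, 705, 815, 628 and 915 in the untreated mice and of 310.0 to 886, median 426, in the STZ mice. Of the STZ arrays, 13 were below the untreated range, for a 1.77-fold fall (−0.83 ± 0.15 log2 units, SE, adjusted p = 0.000708). Creld2, an ER protein induced by stress, had signals of 1039, 629.7, 931, 499 and 889 in the untreated mice and of 154 to 1054, median 356, in the STZ mice. The STZ livers spread widely here and 1 of them exceeded every untreated liver, although the gene fell 2.11-fold (−1.08 ± 0.24 log2 units, SE, adjusted p = 0.00266). Of the other matched genes, Derl3 fell (−1.29, adjusted p = 0.0059), as did the chaperone Hsp90b1 (−0.39, adjusted p = 0.023) and the oxidase Ero1b (−0.39, adjusted p = 0.0295). Fits that left out 1 array lost the call of Hsp90b1 without untreated replicate 1, 2 or 3 (adjusted p up to 0.0845) and Ero1b without untreated replicate 1, 2, 3 or 5 (adjusted p up to 0.0859). The call of Hsp90b1 was lost with averaged probe sets. Dnajc3 (−0.33, adjusted p = 0.0787) and Pdia6 (−0.041, adjusted p = 0.903) were not called, and a second probe set of Pdia6 read −0.67.

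The sensors and factors of the response split. Ern1, which encodes the sensor IRE1, had signals of 623, 579, 634, 573 and 708 in the untreated mice and of 224 to 428, median 307, in the STZ mice. The groups were far apart and the fall was 1.93-fold (−0.95 ± 0.12 log2 units, SE, adjusted p = 1.31e-05), although its second probe set read 0.11. Xbp1, the factor that IRE1 activates by splicing, had signals of 4040.4, 3682, 3698, 3419 and 4023 in the untreated mice and of 1520.2 to 3339, median 2354, in the STZ mice. Every STZ liver was dimmer than every untreated one, with a fall of 1.57-fold (−0.65 ± 0.13 log2 units, SE, adjusted p = 0.00142). Ddit3 (CHOP), the pro-apoptotic factor downstream of PERK, had signals of 104, 109, 134, 114 and 120.1 in the untreated mice and of 68.1 to 98.2, median 80.4, in the STZ mice. It was lower on all 15 arrays, 1.36-fold (−0.44 ± 0.071 log2 units, SE, adjusted p = 0.000187), with −0.33 in STZ alone, −0.45 with 0.1% and −0.55 with 0.5% phloridzin.

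Atf6, the sensor that is cleaved in the Golgi, went the other way, with signals of 315, 308, 279, 282 and 330.3 in the untreated mice and of 360.0 to 549.7, median 451, in the STZ mice. All STZ arrays were above the untreated range, for a rise of 1.44-fold (0.52 ± 0.10 log2 units, SE, adjusted p = 0.00117) although a second probe set read 0.076. The other 2 rises, named after their values were seen, were Trib3, a pseudokinase induced by stress (0.65, adjusted p = 0.0352), and the oxidase Ero1a (0.28, adjusted p = 0.0401). In fits without 1 array, calls were lost for Trib3 without untreated replicate 1, 2, 3 or 4 or 0.5% phloridzin replicate 1 (adjusted p up to 0.0808) and Ero1a in 12 of 20 such fits (all 5 with an untreated array left out, adjusted p up to 0.0951). Averaged probe sets ended the calls of Atf6, Trib3 and Ero1a.

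In the translocon list, Sec11a, a catalytic subunit of signal peptidase, had signals of 1289.8, 1207, 1229.7, 1145 and 1162 in the untreated mice and of 709 to 1112, median 850.0, in the STZ mice. The groups were apart, with a 1.42-fold fall (−0.50 ± 0.081 log2 units, SE, adjusted p = 0.000192). Srp19, a protein of the signal recognition particle, had signals of 668, 655, 647, 582 and 612 in the untreated mice and of 396 to 576, median 481, in the STZ mice. It too was lower in all STZ livers, by 1.31-fold (−0.38 ± 0.076 log2 units, SE, adjusted p = 0.00113). Rpn1, a subunit of the oligosaccharyltransferase (−0.53, adjusted p = 0.00078), and Sec61b, a subunit of the translocon channel (−0.55, adjusted p = 0.00194), fell with 14 and 13 of 15 STZ arrays below the untreated range. The 2 rises were the mannosyltransferase genes Alg1 (0.28, adjusted p = 0.0261) and Dpm1 (0.24, adjusted p = 0.041). Leaving out single arrays ended the call of Alg1 without untreated replicate 1 or 4 (adjusted p up to 0.0761) and Dpm1 in 12 of 20 such fits (all 5 with an untreated array left out, adjusted p up to 0.098). With median centring, Dpm1 was not called.

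In vesicle transport the 4 falls with the smallest p were Gbf1, an exchange factor for the coat GTPase ARF (−0.51, adjusted p = 0.00248), Sec24a, a cargo adaptor of the COPII coat (−0.43, adjusted p = 0.00262), and the membrane fusion proteins Bet1 (−0.67, adjusted p = 0.00378) and Sec22b (−0.61, adjusted p = 0.00413). For each of them 14 of 15 STZ arrays were below the untreated range. Under averaged probe sets, the call of Sec24a was lost. Markers of B and plasma cells, the latter rich in ER, had a summed signal of 436 to 574 in untreated and 127 to 408 in STZ liver. Much of this sum was Ighm, with mean signals of 354 in untreated and 93.6 in STZ liver. Its difference was −1.87, but −0.34 with averaged probe sets. Of 7 measured markers 2 were lower (28.6%, against 12.2% of all genes), Ighm and Jchain, and the other 5 were not called, among them Mzb1 (−0.15, adjusted p = 0.447). The pancreas marker Cela1 also fell (−1.54, adjusted p = 0.000112), while Cpa1 and Ins2 had mean signals of 1.39 and 4.08. Their part in the result was not tested. In whole liver, fewer cells of a type and less RNA per cell cannot be told apart.

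**Figure D4:**
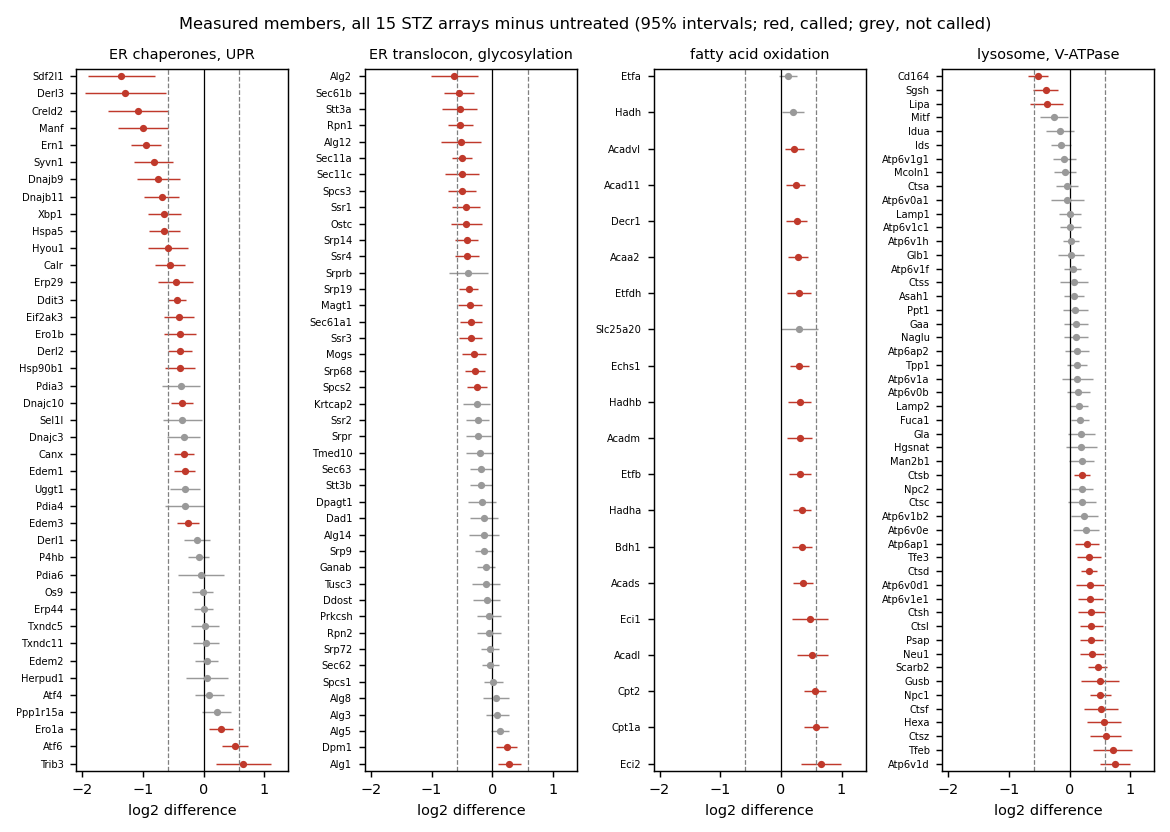
Difference of each measured gene of 4 lists, all 15 STZ arrays minus untreated, as points with 95% intervals, in red where called and grey where not; dashed lines mark 1.5-fold. Most red points of the translocon and fatty acid oxidation lists lie between the dashed lines, while falls of the chaperone list reach from −0.26 in Edem3 to −1.36 in Sdf2l1.

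Mitochondrial fatty acid oxidation breaks acyl chains down to acetyl-CoA after their import on carnitine. Of its 20 measured genes, out of 23 listed, 17 rose (85%, against 10.9% of all genes) and 0 fell, and 16 of the 17 rises were under 1.5-fold. The median was 0.31, and every measured member was positive, from 0.11 to 0.66. Without untreated replicate 1, 11 of the 17 were called. Cpt1a, the rate-controlling carnitine transferase of the outer membrane, had signals of 1538, 1827, 1429.8, 2164 and 1666 in the untreated mice and of 1945 to 2955, median 2645, in the STZ mice. One STZ array reached into the untreated range, and the rise was 1.49-fold (0.58 ± 0.096 log2 units, SE, adjusted p = 0.000277), while a second probe set read 0.023. The call of Cpt1a was lost with averaged probe sets.

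Cpt2, its partner in the inner membrane, had signals of 809.5, 837, 805, 795 and 854 in the untreated mice and of 959 to 1513, median 1270.2, in the STZ mice. The untreated mice were tightly grouped below all STZ mice, with a 1.48-fold rise (0.56 ± 0.089 log2 units, SE, adjusted p = 0.000174), and 0.68 in STZ alone, 0.67 with 0.1% and 0.33 with 0.5% phloridzin. Its second probe set read 0.043. Hadha, a subunit of the trifunctional protein, had signals of 1338, 1472, 1299, 1491 and 1398 in the untreated mice and of 1593 to 2136, median 1751, in the STZ mice. This 1.27-fold rise also left no overlap (0.34 ± 0.071 log2 units, SE, adjusted p = 0.00158). Acads, the short-chain acyl-CoA dehydrogenase, had signals of 884, 853, 827, 1004 and 947 in the untreated mice and of 983 to 1365, median 1118, in the STZ mice. All but 1 of the STZ arrays were above the untreated range, by 1.29-fold on average (0.36 ± 0.079 log2 units, SE, adjusted p = 0.00256).

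The citric acid cycle list, with pyruvate entry, rose in 12 of 25 measured genes, out of 26 listed, or 48% against 10.9% of all genes, 9 of them by less than 1.5-fold, and 1 fell, with a median of 0.22. Without untreated replicate 1, 7 genes were called higher. Fh1, fumarase, had signals of 2468, 2483, 2463, 2271 and 2383 in the untreated mice and of 2846 to 5492, median 4705, in the STZ mice. The STZ livers were all brighter, by 1.76-fold (0.82 ± 0.14 log2 units, SE, adjusted p = 0.000421). Ogdh, a subunit of the 2-oxoglutarate dehydrogenase complex, had signals of 463, 424, 381, 444 and 366 in the untreated mice and of 512 to 888, median 666, in the STZ mice. Again no array overlapped, with a rise of 1.58-fold (0.66 ± 0.12 log2 units, SE, adjusted p = 0.000443). Idh2, the mitochondrial NADP-dependent isocitrate dehydrogenase, had signals of 299, 323, 329.7, 322 and 288 in the untreated mice and of 376 to 1242, median 677, in the STZ mice. The STZ livers spread widely and all were above the untreated livers. It rose 1.99-fold (1.00 ± 0.20 log2 units, SE, adjusted p = 0.00157), although its second probe set read 0.0042. The 1 fall was Cs, citrate synthase, the enzyme of the first step (−0.60 ± 0.14 log2 units, SE, adjusted p = 0.00326), with 13 of 15 STZ arrays below the untreated range.

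The respiratory chain and ATP synthase turn this oxidation into ATP. Of 71 measured genes, out of 76 listed, 12 rose, all by less than 1.5-fold, and 1 fell, or 18.3% called against 23.1% of all genes, with a median of 0.078 log2 units. By single group, 4 genes were called in STZ alone, 11 with 0.1% and 0 with 0.5% phloridzin. The group medians were 0.069, 0.18 and 0.029, while the F test among the 3 STZ groups called 0 genes of the list. Without untreated replicates 1, 2, 3 or 4 the rises numbered 4, 5, 4 and 6. Cox8a, a subunit of cytochrome c oxidase, had signals of 1676, 1560.2, 1603, 1689 and 1770.2 in the untreated mice and of 1686 to 2734, median 2177, in the STZ mice. One STZ array lay inside the untreated range, and the rise was 1.29-fold (0.36 ± 0.097 log2 units, SE, adjusted p = 0.00984). Ndufs1, a core subunit of complex I, rose (0.30, adjusted p = 0.0161), and so did another complex I subunit gene, Ndufa10 (0.42, adjusted p = 0.00178), with a second probe set at −0.076. The fall was that of Ndufb3, of the same complex (−0.23, adjusted p = 0.0401). Of these calls, fits without 1 array lost Ndufs1 without untreated replicate 5 (adjusted p = 0.058) and Ndufb3 in 8 of 20 such fits (3 with an untreated array left out, adjusted p up to 0.164). Averaged probe sets ended the call of Ndufa10, and median centring ended that of Ndufb3. The NRF1 motif GCGCATGCGC was in 290 of 27025 promoter windows (1.07%) and in 5 of 64 windows of this list. Of 231 tested genes with it, 33 fell, 24 rose and 174 were not called, against 12.2% of all genes called lower and 10.9% higher. Their median was −0.033, against −0.037 over all genes.

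Of 36 measured genes of mitochondrial import and chaperones, out of 40 listed, 9 rose and 4 fell, or 25% and 11.1% against 10.9% and 12.2% of all genes, and 5 rose without untreated replicate 2. Timm8a1, a chaperone of the intermembrane space, rose (0.58, adjusted p = 0.00142), as did the outer membrane genes Mtx1 (0.41, adjusted p = 0.00331) and Tomm40, which encodes the import pore (0.35, adjusted p = 0.00372), each with 14 of 15 STZ arrays above the untreated range. Timm21, a subunit of the inner membrane translocase, had signals of 343, 336, 341, 354 and 344 in the untreated mice and of 235 to 308, median 277, in the STZ mice. The untreated livers were nearly equal and all above the STZ livers, so that a 1.25-fold fall was called (−0.32 ± 0.065 log2 units, SE, adjusted p = 0.00156). The other 3 falls, named after their values were seen, were Clpx, of a matrix protease (−1.29, adjusted p = 0.00127), and the outer membrane genes Tomm40l (−0.34, adjusted p = 0.0173) and Tomm70a (−0.28, adjusted p = 0.0166). Lost in fits that left out 1 array were Tomm40l without untreated replicate 3 or 5 (adjusted p up to 0.07). With averaged probe sets, Tomm70a was not called.

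Of 75 measured mitochondrial ribosomal proteins, out of 77 listed, 9 rose and 5 fell, all by less than 1.5-fold, a share called of 18.7% below the 23.1% of all genes, and the rises numbered 5, 5, 4 and 5 without untreated replicates 1, 2, 3 and 5. Mrpl14 had signals of 501, 459, 432, 516 and 520.2 in the untreated mice and of 539 to 735, median 607, in the STZ mice. Every STZ array was higher, by 1.24-fold (0.32 ± 0.071 log2 units, SE, adjusted p = 0.00327). The 5 falls were Mrps12 (−0.34, adjusted p = 0.00351), Mrpl4 (−0.36, adjusted p = 0.0158), Mrpl19 (−0.38, adjusted p = 0.0125), Mrpl44 (−0.33, adjusted p = 0.0196) and Mrps2 (−0.32, adjusted p = 0.018). When single arrays were left out, the call was lost for Mrpl19 without untreated replicate 1 (adjusted p = 0.0527), Mrpl44 without untreated replicate 3 or 5 (adjusted p up to 0.0926), and Mrps2 without untreated replicate 2 or 5 (adjusted p up to 0.0516). Under averaged probe sets, the calls of Mrpl19, Mrpl44 and Mrps2 were lost, and under median centring, the call of Mrpl44 was lost.

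The urea cycle removes the nitrogen that amino acid breakdown releases. Of 46 measured genes of both, out of 51 listed, 21 rose (45.7%, against 10.9% of all genes) and 0 fell, 12 of the 21 by less than 1.5-fold, with a median of 0.26, and the list mean was above all untreated arrays on 15 of 15 STZ arrays. Slc25a15, the ornithine carrier of the mitochondrial membrane, had signals of 2929.9, 2946, 2827, 2767 and 2885 in the untreated mice and of 3288 to 4996, median 4133, in the STZ mice. The untreated values lay within a narrow band below all STZ values, with a rise of 1.39-fold (0.47 ± 0.092 log2 units, SE, adjusted p = 0.00107). Hgd, which opens the ring of homogentisate in tyrosine breakdown, had signals of 4944, 4741, 4782, 4616 and 4494 in the untreated mice and of 5201 to 9086, median 6526, in the STZ mice. It was higher in all STZ mice, by 1.42-fold (0.51 ± 0.088 log2 units, SE, adjusted p = 0.000412). Slc25a13, the aspartate and glutamate carrier (0.62, adjusted p = 0.000121), and Cth, which makes cysteine from cystathionine (0.74, adjusted p = 0.000675), rose with 14 of 15 STZ arrays above the untreated range.

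Larger rises were those of Asl, argininosuccinate lyase (1.74, adjusted p = 2.30e-07), and Got1, the cytosolic aspartate aminotransferase (2.19, adjusted p = 5.27e-06), while that of Arg1, the arginase that releases urea, was small (0.42, adjusted p = 0.0073). These 3 were named after their values were seen.

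In gluconeogenesis and glycolysis 8 of 20 measured genes rose (40%, against 10.9% of all genes), out of 26 listed, 6 by less than 1.5-fold, and 1 fell, with a median of 0.21. Without untreated replicate 2, 5 genes were called higher. Slc2a2, the main glucose transporter of the hepatocyte membrane, had signals of 3229, 3106, 2921, 3248 and 2973 in the untreated mice and of 3722 to 4439, median 3977, in the STZ mice. All STZ livers were brighter by a narrow margin, 1.29-fold (0.37 ± 0.061 log2 units, SE, adjusted p = 0.000247). Slc37a4, the glucose-6-phosphate carrier of the ER, had signals of 1285, 1365, 1227, 1173 and 1147 in the untreated mice and of 1496 to 2749, median 2137, in the STZ mice. This larger rise was 1.71-fold without overlap (0.77 ± 0.13 log2 units, SE, adjusted p = 0.000244). Gckr, the regulator of glucokinase (0.45, adjusted p = 0.00422), and Pcx, pyruvate carboxylase (0.24, adjusted p = 0.00968), rose with 11 and 13 of 15 arrays above the untreated range. The fall was Pklr, the liver pyruvate kinase (−1.12 ± 0.31 log2 units, SE, adjusted p = 0.012).

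Of 32 measured genes of the glutathione and thioredoxin systems, out of 36 listed, 11 rose (34.4%, against 10.9% of all genes), 7 by less than 1.5-fold, and 3 fell. Beside Gss and Txnrd1, Oplah, which returns oxoproline to glutamate, had signals of 315, 333, 319, 367 and 301 in the untreated mice and of 457 to 795, median 641, in the STZ mice. The groups were well apart, with a 1.86-fold rise (0.90 ± 0.11 log2 units, SE, adjusted p = 1.52e-05). Gstk1, a glutathione transferase of mitochondria and peroxisomes, had signals of 1296, 1529.8, 1344, 1585 and 1362 in the untreated mice and of 1879 to 3355, median 2711, in the STZ mice. It rose 1.81-fold, again on every STZ array (0.86 ± 0.12 log2 units, SE, adjusted p = 4.80e-05). Ggct, which makes oxoproline in the same cycle, had signals of 158, 162, 177, 159.5 and 145 in the untreated mice and of 37.4 to 124, median 77.4, in the STZ mice. In contrast to Oplah it fell, by 1.87-fold (−0.90 ± 0.17 log2 units, SE, adjusted p = 0.000937). The other falls were Gclc, a subunit of the first enzyme of glutathione synthesis (−0.63, adjusted p = 0.0346), and the catalase gene Cat (−0.24, adjusted p = 0.0431). Fits that left out 1 array lost the call of Gclc without untreated replicate 1, 2, 3 or 4 (adjusted p up to 0.0938) and Cat in 17 of 20 such fits (all 5 with an untreated array left out, adjusted p up to 0.0905). The call of Gclc was lost with averaged probe sets, and that of Cat was lost with median centring.

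**Figure D5:**
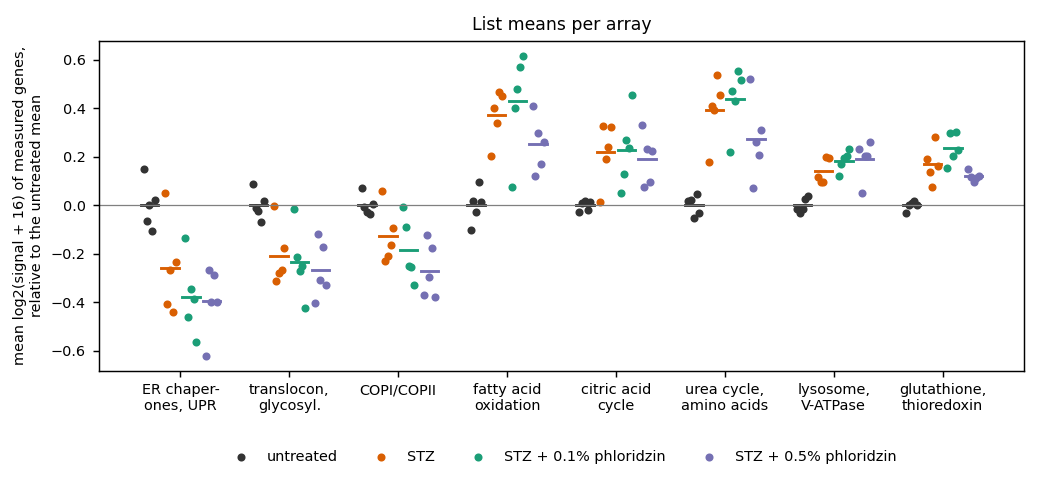
Mean log2(signal + 16) over the measured genes of 8 lists on each array, relative to the untreated mean, with bars at group means. STZ arrays lie below the untreated arrays in the 3 secretory lists, on 14, 13 and 13 of 15 arrays, and above them in the other 5 lists, on 14 or 15 of 15.

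Lysosomes break down proteins, lipids and glycans under an acid pH that the vacuolar ATPase keeps. Of 51 measured genes, out of 56 listed, 18 rose (35.3%, against 10.9% of all genes), 15 of them by less than 1.5-fold, and 3 fell, with a median of 0.17 and a list mean above the untreated range on all 15 STZ arrays. Npc1, which exports cholesterol from lysosomes, had signals of 236, 269, 252, 285 and 241 in the untreated mice and of 322 to 475, median 364, in the STZ mice. The groups did not overlap, with a rise of 1.42-fold (0.50 ± 0.083 log2 units, SE, adjusted p = 0.000255). Scarb2, a lysosomal membrane protein, had signals of 1523, 1484, 1274, 1634 and 1574 in the untreated mice and of 1743 to 2364, median 2059.5, in the STZ mice. It was higher in all STZ livers, by 1.38-fold (0.46 ± 0.077 log2 units, SE, adjusted p = 0.000285). Atp6v1d, a subunit of the vacuolar ATPase, had signals of 355, 343, 382, 349 and 483 in the untreated mice and of 378 to 775, median 649, in the STZ mice. One STZ array fell inside the untreated range, whose highest array stood apart from the other 4, and the rise was 1.69-fold (0.76 ± 0.12 log2 units, SE, adjusted p = 0.000163).

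The cathepsin genes Ctsd (0.32, adjusted p = 0.00129) and Ctsl (0.36, adjusted p = 0.00849), of lysosomal proteases, and Tfeb, the factor that controls many lysosomal genes (0.71, adjusted p = 0.00235), rose too and were named after their values were seen. Tfeb was dim, with signals of 10.3 to 43.0 in the untreated and 35.3 to 71.1 in the STZ mice, and 12 of 15 STZ arrays were above the untreated range. The falls were Cd164, Sgsh, a sulfatase of heparan breakdown (−0.40, adjusted p = 0.00616), and Lipa, the acid lipase (−0.38, adjusted p = 0.0441). The CLEAR motif GTCACGTGAC, known for TFEB, was in 100 of 27025 promoter windows (0.37%) and in 0 of 44 windows of this list, which says only that these letters are not in the windows. Of 74 tested genes with it, 7 fell and 11 rose, with a median of 0.018. The markers of macrophages, which are cells rich in lysosomes, had 2 of 13 measured genes higher (15.4%, against 10.9% of all genes) and 11 not called. The 2 were Cd5l (0.49, adjusted p = 0.00341) and C1qb (0.51, adjusted p = 0.0155). The summed signal of the 13 was 3624 to 4409 in untreated and 3628 to 5628 in STZ liver. In fits without 1 array, calls were lost for Lipa in 14 of 20 such fits (all 5 with an untreated array left out, adjusted p up to 0.12) and C1qb without untreated replicate 5 (adjusted p = 0.0707). Averaged probe sets ended the calls of Lipa and C1qb, and median centring ended that of Lipa. The part of these cells in the result was not tested.

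Of 34 measured cytosolic chaperones, out of 37 listed, 6 fell and 0 rose, a share called of 17.6% against 23.1% of all genes, 12.2% of which were lower, and 3 fell without untreated replicates 1 or 3. Bag3, a cochaperone of HSP70 in selective autophagy, had signals of 409, 271, 441, 246 and 332 in the untreated mice and of 123 to 313, median 168, in the STZ mice. The untreated livers varied widely, 13 of 15 STZ livers were dimmer than all of them, and the fall was 1.81-fold (−0.85 ± 0.16 log2 units, SE, adjusted p = 0.000703). The inducible HSP70 genes Hspa1a and Hspa1b are near-identical, so a probe set may read both. Hspa1a fell (−1.67, adjusted p = 0.00556), and so did Hspa1b (−1.87, adjusted p = 0.0261). The other 3 were Cct3, a subunit of the TRiC chaperonin (−0.40, adjusted p = 0.0013), the inducible HSP90 gene Hsp90aa1 (−0.72, adjusted p = 0.022) and Dnaja4, a cochaperone (−0.46, adjusted p = 0.0492). Leaving out single arrays ended the call of Hspa1b without untreated replicate 1, 3 or 5 (adjusted p up to 0.0935), Hsp90aa1 without untreated replicate 1 or 3 (adjusted p up to 0.0765), and Dnaja4 in 14 of 20 such fits (4 with an untreated array left out, adjusted p up to 0.165). With averaged probe sets, Cct3 and Hsp90aa1 were not called, and with median centring and quantile normalization, Dnaja4 was not called.

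Of 41 measured proteasome genes, out of 43 listed, 7 rose and 3 fell, a share of 24.4% near the 23.1% of all genes called. Psmb10, a catalytic subunit of the immunoproteasome, had signals of 297, 270.0, 265, 279 and 234 in the untreated mice and of 346 to 496, median 416, in the STZ mice. No STZ array overlapped, with a rise of 1.51-fold (0.59 ± 0.080 log2 units, SE, adjusted p = 2.91e-05). Psme1, a subunit of the proteasome activator PA28, had signals of 823, 866, 854, 769.8 and 867 in the untreated mice and of 944 to 1290.4, median 1068, in the STZ mice. It was higher on every STZ array as well, by 1.30-fold (0.38 ± 0.070 log2 units, SE, adjusted p = 0.000679). The falls were the core subunit gene Psma5 (−0.43, adjusted p = 0.00125) and, named after their values were seen, the core and cap subunit genes Psma1 (−0.35, adjusted p = 0.00371) and Psmc2 (−0.29, adjusted p = 0.00713). Under averaged probe sets, the calls of Psma1 and Psmc2 were lost.

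Of 22 measured aminoacyl-tRNA synthetases, out of 24 listed, 4 fell and 1 rose, with 22.7% called against 23.1% of all genes. Tars, the threonine enzyme, had signals of 1237, 1098, 989, 1139 and 985 in the untreated mice and of 323 to 1171, median 484, in the STZ mice. All but 1 STZ liver were dimmer, by 1.98-fold on average (−0.99 ± 0.24 log2 units, SE, adjusted p = 0.00614). Farsb, a subunit of the phenylalanine enzyme, was lower on all 15 arrays (−0.45, adjusted p = 0.0039), and the asparagine and methionine enzyme genes Nars (−0.34, adjusted p = 0.0216) and Mars1 (−0.33, adjusted p = 0.0259) fell as well. The valine enzyme gene Vars rose (0.37, adjusted p = 0.0132). Of these calls, fits without 1 array lost Nars without untreated replicate 1, 3 or 5 (adjusted p up to 0.0669), Mars1 without untreated replicate 1 or 5 (adjusted p up to 0.0903), and Vars without untreated replicate 3 (adjusted p = 0.0697). The call of Farsb was lost with averaged probe sets, and those of Nars and Mars1 were lost with median centring.

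Among 40 measured translation factors, out of 46 listed, 5 fell and 3 rose, or 20% called against 23.1% of all genes. Eif4a2, a helicase of initiation, had signals of 2501, 2463, 2390.3, 2568 and 2347 in the untreated mice and of 1638 to 2156, median 1893, in the STZ mice. The STZ livers were all dimmer, by 1.30-fold (−0.38 ± 0.076 log2 units, SE, adjusted p = 0.00122). Eif1a, which scans for the start codon, fell as well (−0.59, adjusted p = 0.000636). Eif6, which keeps ribosomal subunits apart, rose on all 15 arrays (0.32, adjusted p = 0.00161). The other falls were the initiation factor genes Eif2b2 (−0.30, adjusted p = 0.0219) and Eif4h (−0.21, adjusted p = 0.0215) and the elongation factor gene Eef1b2 (−0.29, adjusted p = 0.0107), and the other rises Eif2b3 (0.32, adjusted p = 0.0145) and Eif5 (0.29, adjusted p = 0.0152). Lost in fits that left out 1 array were Eif2b2 without untreated replicate 2, 3 or 5 (adjusted p up to 0.0673), Eif4h without untreated replicate 3 or 5 (adjusted p up to 0.0739), Eif2b3 without untreated replicate 3 (adjusted p = 0.0594), and Eif5 without untreated replicate 1 or 2 (adjusted p up to 0.055). Averaged probe sets ended the calls of Eif6, Eif2b2, Eif4h and Eif5, and median centring ended those of Eif2b2, Eif4h and Eef1b2.

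Cytosolic ribosomal proteins had the lowest share called of the 28 lists, 6.98% against 23.1% of all genes. Of 43 measured genes, out of 78 listed, 2 rose and 1 fell. These were Fau (0.33, adjusted p = 0.00643), Rps19 (0.29, adjusted p = 0.0219) and Rps3a1 (−0.25, adjusted p = 0.0171), for which pseudogene copies may share probes. When single arrays were left out, the call was lost for Rps19 without untreated replicate 1, 2 or 4 (adjusted p up to 0.0718) and Rps3a1 without untreated replicate 5 (adjusted p = 0.0569). With median centring, Rps3a1 was not called.

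Of 51 measured splicing factors, out of 55 listed, 10 fell, 8 by less than 1.5-fold, and 3 rose, with 19.6% lower against 12.2% of all genes. Srsf3, a serine and arginine-rich factor, had signals of 562, 607, 546, 526 and 619.7 in the untreated mice and of 211 to 509, median 396, in the STZ mice. Each STZ liver was below each untreated liver, and the fall was 1.53-fold (−0.61 ± 0.13 log2 units, SE, adjusted p = 0.0019). Tra2b, a regulator of exon inclusion, had signals of 564, 587, 723, 554 and 495 in the untreated mice and of 304 to 522, median 412, in the STZ mice. One STZ array lay inside the untreated range, with a fall of 1.48-fold (−0.57 ± 0.12 log2 units, SE, adjusted p = 0.00152). Prpf6, of the spliceosomal tri-snRNP, fell too (−0.51, adjusted p = 0.0017). Clk4, a kinase of these factors, rose on all 15 arrays (0.52, adjusted p = 0.004). The other 2 rises were Sf3b1, of the U2 particle (0.33, adjusted p = 0.0174), and Srsf6 (0.31, adjusted p = 0.0395). Fits that left out 1 array lost the call of Sf3b1 without untreated replicate 2 (adjusted p = 0.0552) and Srsf6 in 11 of 20 such fits (4 with an untreated array left out, adjusted p up to 0.135). Under averaged probe sets, the calls of Sf3b1 and Srsf6 were lost.

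Insulin acts on hepatic genes through AKT and the FoxO factors. Of 29 measured genes of this pathway, out of 34 listed, 4 rose and 2 fell, or 20.7% called against 23.1% of all genes. Foxo3, which AKT keeps out of the nucleus, had signals of 179, 140.2, 173, 147 and 189 in the untreated mice and of 169 to 492, median 276, in the STZ mice. One STZ liver was inside the untreated range and others were far above it, with a rise of 1.64-fold (0.72 ± 0.14 log2 units, SE, adjusted p = 0.00121). Grb10, an adaptor that restrains the insulin receptor, had signals of 127, 99.9, 74.6, 58.0 and 85.1 in the untreated mice and of 42.4 to 70.5, median 55.2, in the STZ mice. The fall was 1.47-fold with 10 of 15 STZ arrays below the untreated range (−0.55 ± 0.11 log2 units, SE, adjusted p = 0.00126). The related adaptor Grb14 fell too (−0.48, adjusted p = 0.0312). The receptor gene Insr (0.27, adjusted p = 0.12), its substrates Irs1 (−0.033, adjusted p = 0.861) and Irs2 (0.28, adjusted p = 0.415), and Foxo1 (0.28, adjusted p = 0.135) were not called. The other rises beside Trib3 were the pseudokinase gene Trib1 (0.45, adjusted p = 0.02) and Pik3cb, a catalytic subunit of a lipid kinase (0.24, adjusted p = 0.0366). In fits without 1 array, calls were lost for Grb14 without untreated replicate 1, 2, 3 or 5 (adjusted p up to 0.0849), Trib1 without untreated replicate 1, 2 or 3 (adjusted p up to 0.0993), and Pik3cb in 7 of 20 such fits (3 with an untreated array left out, adjusted p up to 0.13). The calls of Grb14 and Trib1 were lost with averaged probe sets, and that of Grb14 was lost with median centring.

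Among 34 measured genes of AMPK and mTOR, out of 35 listed, 7 rose and 3 fell, or 20.6% and 8.82% against 10.9% and 12.2% of all genes, and rises numbered 4, 3, 3 and 4 without untreated replicates 1, 2, 3 and 5. Prkag2, a regulatory subunit of AMPK, had signals of 85.1, 86.1, 74.0, 123 and 76.9 in the untreated mice and of 107 to 186, median 143, in the STZ mice. Untreated replicate 4 stood above the other 4 untreated mice, and the rise was 1.53-fold (0.62 ± 0.12 log2 units, SE, adjusted p = 0.000734). Castor1, an arginine sensor that holds mTOR complex 1 back, was dim in untreated liver, with signals of 6.74, 29.1, 20.2, 39.8 and 30.6 in the untreated mice and of 36.3 to 70.1, median 51.7, in the STZ mice. It rose with 13 of 15 STZ arrays above the untreated range (0.79 ± 0.15 log2 units, SE, adjusted p = 0.00113). Rheb, the GTPase that switches that complex on, had signals of 1129, 1227, 1094, 1171 and 1239 in the untreated mice and of 752 to 1169, median 967, in the STZ mice. It fell by 1.24-fold (−0.31 ± 0.086 log2 units, SE, adjusted p = 0.0122), with 13 of 15 arrays below the untreated range. The catalytic subunit gene Prkaa1 was not called (−0.17, adjusted p = 0.344). The other falls were Lamtor1, a lysosomal anchor of the complex (−0.30, adjusted p = 0.0113), and Sesn3, a sestrin (−0.44, adjusted p = 0.0468). Leaving out single arrays ended the call of Sesn3 in 14 of 20 such fits (all 5 with an untreated array left out, adjusted p up to 0.128). Averaged probe sets and median centring ended the calls of Lamtor1 and Sesn3.

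Of 31 measured liver-enriched transcription factors, out of 34 listed, 5 rose and 5 fell, or 16.1% each way against 10.9% and 12.2% of all genes. Over fits that left out 1 array the rises numbered 0 to 5, with 0 without untreated replicate 1, and the falls 3 to 6, with 3 without that array. Foxa1, a pioneer factor of liver enhancers, had signals of 209.8, 197, 228, 218 and 199 in the untreated mice and of 92.3 to 162, median 122, in the STZ mice. The STZ livers were all far below the untreated ones, by 1.66-fold (−0.74 ± 0.10 log2 units, SE, adjusted p = 4.09e-05). Onecut1 (HNF6) fell with 12 of 15 arrays below the untreated range (−1.37 ± 0.28 log2 units, SE, adjusted p = 0.00165). Xbp1 belongs to this list too, and the other falls were Foxa2 (−0.48, adjusted p = 0.0483) and the carbohydrate response factor Mlxipl (−0.38, adjusted p = 0.0436). The rises were the acute phase factors Cebpd (0.80, adjusted p = 0.045) and Cebpb (0.76, adjusted p = 0.0313), Klf15, a factor of amino acid breakdown (0.59, adjusted p = 0.0287), Nr5a2, a receptor of bile acid synthesis (0.28, adjusted p = 0.0454), and Onecut2 (0.22, adjusted p = 0.0466). Of these calls, fits without 1 array lost Foxa2 in 14 of 20 such fits (all 5 with an untreated array left out, adjusted p up to 0.105), Mlxipl in 11 of 20 such fits (all 5 with an untreated array left out, adjusted p up to 0.134), Cebpd in 14 of 20 such fits (4 with an untreated array left out, adjusted p up to 0.128), Cebpb without untreated replicate 1, 4 or 5 (adjusted p up to 0.0909), Klf15 without untreated replicate 1, 2, 3 or 5 (adjusted p up to 0.0659), Nr5a2 in 15 of 20 such fits (all 5 with an untreated array left out, adjusted p up to 0.141), and Onecut2 in 13 of 20 such fits (4 with an untreated array left out, adjusted p up to 0.192). With averaged probe sets, Foxa2, Cebpd and Nr5a2 were not called, with median centring, Foxa2 and Mlxipl were not called, and with quantile normalization, Nr5a2 was not called. Hnf4a (0.17, adjusted p = 0.224) and Cebpa (−0.25, adjusted p = 0.385), which define the hepatocyte, were not called.

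Of 31 measured nuclear receptors and cofactors, out of 37 listed, 9 rose and 3 fell, or 29.0% and 9.68% against 10.9% and 12.2% of all genes. Nr1i3 (CAR), a receptor for foreign compounds, had signals of 491, 535, 498, 587 and 453 in the untreated mice and of 602 to 1183, median 939.8, in the STZ mice. The groups did not overlap, with a 1.76-fold rise (0.82 ± 0.13 log2 units, SE, adjusted p = 0.000141). Ppargc1b, a coactivator of mitochondrial genes, had signals of 91.4, 98.2, 94.6, 138 and 123 in the untreated mice and of 139 to 288, median 195, in the STZ mice. It rose 1.72-fold on every STZ array (0.78 ± 0.13 log2 units, SE, adjusted p = 0.000254). Nr1i2 (PXR) (0.62, adjusted p = 0.00101) and the mitochondrial deacetylase gene Sirt3 (0.60, adjusted p = 0.000674) rose with 14 of 15 arrays above the untreated range. The bile acid receptor gene Nr1h4 rose less (0.29, adjusted p = 0.0222). Lost in fits that left out 1 array were Nr1h4 without untreated replicate 1, 3 or 4 (adjusted p up to 0.0835).

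Nr3c1, the glucocorticoid receptor gene, had signals of 425, 387, 403, 417 and 403 in the untreated mice and of 187 to 384, median 324, in the STZ mice. All STZ arrays were below the untreated range and the fall was 1.32-fold (−0.40 ± 0.12 log2 units, SE, adjusted p = 0.0211), although a second probe set read −0.011. The other falls were Ppard, a fatty acid receptor (−0.36, adjusted p = 0.0349), and Thra, a thyroid hormone receptor (−0.30, adjusted p = 0.0452). When single arrays were left out, the call was lost for Nr3c1 without untreated replicate 1 (adjusted p = 0.0552), Ppard without untreated replicate 1, 3 or 4 (adjusted p up to 0.152), and Thra in 14 of 20 such fits (4 with an untreated array left out, adjusted p up to 0.172). Under averaged probe sets, the calls of Nr3c1 and Thra were lost, under median centring, the calls of Nr3c1, Ppard and Thra were lost, and under quantile normalization, the calls of Ppard and Thra were lost. Ppara (−0.096, adjusted p = 0.44) and its partner Rxra (−0.090, adjusted p = 0.425) were not called.

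Of 42 measured genes of complement and coagulation, out of 46 listed, 9 fell and 6 rose, or 21.4% and 14.3% against 12.2% and 10.9% of all genes, and rises numbered 3 without untreated replicate 5. Pros1, the anticoagulant protein S, had signals of 158, 158, 163, 163 and 154 in the untreated mice and of 174 to 269, median 232, in the STZ mice. The untreated values were nearly equal and all below the STZ values, for a rise of 1.39-fold (0.48 ± 0.083 log2 units, SE, adjusted p = 0.000416). Kng1, kininogen, had signals of 6245, 6406, 6560.2, 6869 and 6713 in the untreated mice and of 7356 to 12789.6, median 8758, in the STZ mice. Every STZ array was brighter, by 1.35-fold (0.43 ± 0.087 log2 units, SE, adjusted p = 0.00137). C8b, a subunit of the membrane attack complex, had signals of 2152, 1589, 1581, 1330.3 and 1505 in the untreated mice and of 528 to 1331, median 886, in the STZ mice. It fell 1.84-fold (−0.88 ± 0.18 log2 units, SE, adjusted p = 0.00161) with 14 of 15 arrays below the untreated range, as many as for Mbl1, a lectin that starts complement activation (−0.48, adjusted p = 0.00232).

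Phospholipid synthesis had 7 rises and 7 falls in 32 measured genes out of 35 listed, or 21.9% each way against 10.9% and 12.2% of all genes. Selenoi, which makes phosphatidylethanolamine, had signals of 367, 317, 311, 372 and 345 in the untreated mice and of 132 to 328, median 167, in the STZ mice. The untreated range was entered by a single STZ array, and the fall was 1.73-fold (−0.79 ± 0.19 log2 units, SE, adjusted p = 0.00497). Gpam, which starts glycerolipid synthesis in mitochondria, fell (−0.57, adjusted p = 0.00886) although 1 STZ array was above all untreated arrays, and Pla2g12b, needed for lipoprotein secretion, fell as well (−0.48, adjusted p = 0.00544). Crls1, cardiolipin synthase, rose (0.52, adjusted p = 0.00183). The call of Crls1 was lost with averaged probe sets.

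In the actin and microtubule cytoskeleton 5 of 39 measured genes fell and 1 rose, out of 47 listed, with 12.8% lower against 12.2% of all genes. Vcl, the adhesion protein vinculin (−0.76, adjusted p = 0.00236), and Tuba1a, a tubulin (−0.53, adjusted p = 0.00108), were lower on all 15 arrays, and Gsn, gelsolin (−0.47, adjusted p = 0.00786), on 12. The other falls, named after their values were seen, were the tubulin genes Tubb2a (−1.35, adjusted p = 0.0121) and Tuba4a (−0.49, adjusted p = 0.0337), and the rise was Pfn1, profilin (0.35, adjusted p = 0.0041). Fits that left out 1 array lost the call of Tuba4a without untreated replicate 1, 2, 3 or 5 (adjusted p up to 0.101). Median centring and quantile normalization ended the call of Tuba4a.

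Of 37 measured autophagy genes, out of 40 listed, 6 rose and 3 fell, a share of 24.3% near the 23.1% of all genes called, and 3 rose without untreated replicate 3. The falls were the kinase gene Ulk2 (−0.71, adjusted p = 0.00032), the protease gene Atg4c (−0.37, adjusted p = 0.022) and Wipi1, of the growing membrane (−0.35, adjusted p = 0.00285). Of 24 measured peroxisome genes, out of 29 listed, 3 rose and 3 fell, or 25% called. Abcd2, a fatty acid transporter (0.94, adjusted p = 0.0311), Ehhadh, an enzyme of peroxisomal oxidation (0.50, adjusted p = 0.00313), and Pex7, an import receptor (0.32, adjusted p = 0.0029), rose. Pex6, an import ATPase (−0.67, adjusted p = 0.00044), and Crot, a carnitine transferase (−0.67, adjusted p = 0.0109), fell with Cat. In fits without 1 array, calls were lost for Atg4c without untreated replicate 1, 2 or 5 (adjusted p up to 0.0683) and Abcd2 without untreated replicate 1, 2 or 3 (adjusted p up to 0.116). With averaged probe sets, Atg4c and Crot were not called, and with median centring, Atg4c was not called.

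Of 14 measured genes often used as references, out of 20 listed, 3 rose and 2 fell. These shares were 21.4% higher and 14.3% lower, against 10.9% and 12.2% of all genes. Tbp, the TATA-binding protein, had signals of 108, 104, 104, 104 and 101 in the untreated mice and of 54.0 to 95.2, median 73.8, in the STZ mice. It was lower on all 15 arrays, by 1.32-fold (−0.40 ± 0.090 log2 units, SE, adjusted p = 0.00327). Ipo8, an importin, was lower on all 15 as well (−0.45, adjusted p = 0.000224). The glucuronidase gene Gusb (0.50, adjusted p = 0.0201), Tfrc, the transferrin receptor (0.70, adjusted p = 0.0264), and the glycolytic gene Pgk1 (0.19, adjusted p = 0.0308) rose. Leaving out single arrays ended the call of Gusb without untreated replicate 4 (adjusted p = 0.0594), Tfrc without untreated replicate 2, 3 or 4 (adjusted p up to 0.0664), and Pgk1 without untreated replicate 2, 3, 4 or 5 (adjusted p up to 0.0769). Under averaged probe sets, the calls of Ipo8 and Pgk1 were lost, and under quantile normalization, the call of Pgk1 was lost. Actb (−0.19, adjusted p = 0.322) and Hprt (−0.042, adjusted p = 0.745) were not called.

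Hepatocyte markers were bright, such as Alb with a mean signal of 13712, and 0 of 8 measured were called in either direction, against 23.1% of all genes. Stellate cell and fibroblast markers had 4 of 13 lower (30.8%, against 12.2% of all genes) and 0 higher. The other 9 were not called, and of the 13 differences 4 were positive and 9 negative. Dcn, the brightest of them, differed by 0.15. The summed signal of the 13 was 3638 to 5213 in untreated and 2899.8 to 4011 in STZ liver. Pdgfrb, a growth factor receptor of these cells, had signals of 75.6, 89.1, 105, 124 and 108 in the untreated mice and of 25.0 to 87.4, median 44.5, in the STZ mice. All but 1 STZ array were below the untreated range (−0.91 ± 0.16 log2 units, SE, adjusted p = 0.000545), and Col1a2 (−0.46, adjusted p = 0.00267) and Col3a1 (−1.37, adjusted p = 0.000895), collagen genes, fell with it and Reln.

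Ighm, the heavy chain of IgM, had signals of 417, 324, 409, 296 and 326 in the untreated mice and of 44.0 to 286, median 76.5, in the STZ mice. The STZ livers were all dimmer (−1.87 ± 0.24 log2 units, SE, adjusted p = 1.99e-05), as they were for Jchain, which joins IgM chains, with signals of 52.8, 66.0, 54.0, 53.0 and 66.7 in the untreated mice and of 16.4 to 40.1, median 29.3, in the STZ mice. Jchain fell by 1.68-fold (−0.75 ± 0.12 log2 units, SE, adjusted p = 0.000135), whereas the B cell markers Cd79a, Cd79b and Ms4a1, dim with mean signals of 9.62, 15.9 and 9.60, were not called. Mzb1 (−0.15, adjusted p = 0.447) and Pax5 (−0.048, adjusted p = 0.836) of the same list were not called either. With averaged probe sets the difference of Ighm was −0.34. Against 23.1% of all genes called, the endothelial markers had 1 of 12 (8.33%), Lyve1 (1.18, adjusted p = 0.000651), and the neutrophil markers 0 of 6. Of 5 measured T and NK cell markers, dim throughout, 1 was called (20%), Gzma (−0.36, adjusted p = 0.0308). Of 4 measured cholangiocyte markers, all dim, 1 was called (25%), Sox9 (−0.50, adjusted p = 0.00255). The 1 adipocyte marker measured, Cidec, was called too (0.41, adjusted p = 0.0169), while the 1 skeletal muscle marker was not. Of these calls, fits without 1 array lost Gzma without untreated replicate 2, 3 or 5 (adjusted p up to 0.129) and Cidec without untreated replicate 5 (adjusted p = 0.0828). The call of Gzma was lost with median centring and quantile normalization.

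The erythroid markers had 3 of 7 measured. Alas2, which starts heme synthesis in red cell precursors and was named after its values were seen, had signals of 1443, 1294, 1327, 1258 and 1313 in the untreated mice and of 125 to 1365, median 361, in the STZ mice. STZ replicate 1 lay inside the untreated range and the other 14 STZ arrays below it. It fell by 3.20-fold (−1.68 ± 0.42 log2 units, SE, adjusted p = 0.00646), while Klf1, an erythroid factor, was dim and rose (0.37, adjusted p = 0.00736) and Slc4a1, a red cell anion exchanger, was not called (−0.24, adjusted p = 0.29). The summed signal of the 3 was 1300.5 to 1475 in untreated and 171 to 1397 in STZ liver, and their mean was below all untreated arrays on 12 of 15 STZ arrays. Their part in the other results was not tested.

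The largest changes stand for scale beside the small ones, taken among genes whose 15 STZ arrays all lay on one side of the 5 untreated arrays, so that the separation was fixed by the choice. Cyp4a14, a fatty acid hydroxylase, had signals of 5.80, 6.85, 16.7, 33.1 and 9.79 in the untreated mice and of 48.9 to 6103, median 2825, in the STZ mice, and Cplane1, a gene of ciliary assembly, had signals of 19.7, 8.49, 22.0, 15.9 and 1.71 in the untreated mice and of 245 to 1274, median 625, in the STZ mice. Their untreated signals were near those of dim probe sets, so no fold is given (adjusted p = 8.25e-06 and 1.12e-08). The log2 difference of Cplane1, which has 7 probe sets, was 4.33, but 1.57 with averaged probe sets, where it was still called. Nnmt, which methylates nicotinamide, had signals of 65.0, 44.5, 30.6, 24.0 and 35.0 in the untreated mice and of 591 to 3439.6, median 2527, in the STZ mice. It rose 36.0-fold (5.17 ± 0.38 log2 units, SE, adjusted p = 1.83e-08). Among the falls, Hsd3b5, a male-biased steroid dehydrogenase, had signals of 6044, 5673, 5846, 5285 and 6986 in the untreated mice and of 8.45 to 3504, median 199, in the STZ mice. It fell, and the 15 STZ livers differed widely among themselves (−4.42 ± 1.04 log2 units, SE, adjusted p = 0.00442). Serpina4-ps1, a serpin pseudogene, had signals of 831, 858, 622, 735 and 953 in the untreated mice and of 8.06 to 208, median 18.2, in the STZ mice, and Serpina12, which encodes vaspin, had signals of 2018, 1530.3, 1264, 937 and 1339 in the untreated mice and of 2.22 to 626, median 59.5, in the STZ mice. Both fell (adjusted p = 1.03e-06 and 0.000466).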

How the data were processed

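Total RNA of 20 livers was measured, 1 array per mouse and 5 mice per group, on Affymetrix mouse arrays of 45101 probe sets. The authors deposited 1 linear intensity per probe set and array (signal). The values show a 2% trimmed mean of 100 on every array, with the generating software "not given in the sources used here". In all, 34945 probe sets had 1 gene symbol in the platform annotation. Left out were 64 control probe sets, 932 with several gene symbols and 9160 with none. The probe set with the highest mean log signal stood for each of 18193 genes, and 12947 genes above the 40th percentile of that mean (signal 8.48) were kept.

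Differences of log2(signal + 16) were tested with limma 3.58.1 in R 4.3.3, as 4 group means with the mean of the 3 STZ groups minus the untreated group as contrast, and p-values were adjusted by Benjamini-Hochberg over 12947 genes. The fit was tested on simulated data with 200 changed genes. Alternatives were quantile normalization, median centring, a pseudocount of 1, no filter or the 60th percentile, the mean of a gene's probe sets, array weights, a trended and robust prior, 1 mean for all STZ arrays, the replicate number as a block, and leaving out each array. Same-numbered mice of different groups are different animals, so the block is an alternative only.

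Named were the 10 rises and 10 falls under 1.5-fold with the smallest p, a signal of at least 100 in both groups and 1 sign in all 3 STZ groups. To these were added up to 4 called genes per list by smallest p under 2-fold, a panel of 15 genes of which 14 were tested, and the 3 largest rises and falls without overlap at a signal of at least 100. Genes beyond these, among them all promoter matches and members of small counts, were chosen after their values were seen. The comparison, its members and the gene lists were chosen with earlier results of these data known.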

Additional observations from a re-analysis of the deposited data

Results flagged for a closer look

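A result was picked out when the highest or lowest of the 5 arrays of a group stood apart from the other 4 by Dixon's criterion at 95%. Chance picks about 1 in 20 groups, and of 896 groups of the named genes 41 were picked, against 44.8 by chance, so no single case is a finding. Each is given as the signal of the array that stood apart and the range of the other 4, with no explanation.

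STZ replicate 1 was low for Cyp4a14 (48.9 against 2710.1 to 5867), Fh1 (3399.6 against 4704 to 4809), Got1 (1849.6 against 4554 to 4913), Nnmt (932 against 2527 to 3265) and Pcx (1741 against 1905 to 1972), and high for Dnaja4 (61.8 against 25.9 to 34.0), Nars (1369 against 1093 to 1129) and Ulk2 (500.4 against 301 to 341). 0.5% phloridzin replicate 1 was low for Canx (1917 against 2371 to 2491), Creld2 (154 against 297 to 385), Dnaja4 (20.6 against 37.4 to 44.9), Gsn (145 against 215 to 227) and Hspa5 (2931 against 3864 to 4155), and high for Cpt1a (2815 against 2263 to 2396). Untreated replicate 5 was low for Cyp2j5 (3819.7 against 4181 to 4252), and high for Cs (1134 against 710.1 to 793), Eif5 (2132 against 1597 to 1729), Fau (3501 against 2993 to 3129) and Tuba4a (5653 against 4386 to 4682). Untreated replicate 4 was low for Cd164 (3553 against 4086 to 4163), and high for Crls1 (313 against 249 to 266), Ctsl (5245 against 4737 to 4853) and Prkag2 (123 against 74.0 to 86.1). 0.1% phloridzin replicate 1 was low for Acads (1028 against 1290.0 to 1365), Cpt2 (974 against 1402 to 1424) and Cth (4435 against 5808 to 6115). 0.5% phloridzin replicate 2 was low for Dpm1 (527 against 707 to 760.0) and Gss (446 against 506 to 522), and high for Ggct (121 against 59.8 to 73.7). STZ replicate 3 was low for Wipi1 (80.9 against 97.6 to 104), and high for Atg4c (116 against 74.7 to 77.6). 0.1% phloridzin replicate 4 was low for Mrps34 (767 against 1038 to 1117), and high for Kng1 (12789.6 against 8758 to 9572). 0.1% phloridzin replicate 5 was low for Psmc2 (1308 against 1461 to 1522), and high for Pdha1 (1355 against 1037 to 1095). STZ replicate 2 was low for Pfn1 (1353 against 1561 to 1619.9). STZ replicate 5 was low for Nr3c1 (228 against 309 to 349). 0.1% phloridzin replicate 2 was low for Tfrc (211 against 459 to 518). 0.5% phloridzin replicate 4 was high for Acnat2 (229 against 149 to 166). Untreated replicate 1 was low for Nr5a2 (396 against 454 to 476). Untreated replicate 3 was low for Atg4c (80.5 against 106 to 119).

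Data outside the gene comparison were also picked out. On 0.1% phloridzin replicate 4 the bioD and cre spike-in signals, 14067 and 33369, lay above the untreated ranges of 3997 to 4794 and 12191 to 15462. Their part in the gene values was not tested, and the pooled comparison without this array called 2924 genes.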

How the results depend on the processing

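Counts of genes called in the pooled comparison ranged from 2255 to 3294 over fits without 1 array and from 2665 to 4071 over the other settings, against 2995. Without 1 array, 1074 to 1526 genes rose, 1161 to 1768 fell, 1375 to 2269 changed by less than 1.5-fold, 641 to 1014 of them upward and 734 to 1255 downward, 563 to 677 by 1.5 to 2-fold and 290 to 352 by 2-fold or more. The single groups gave 1171 to 1991 calls for STZ alone, 1492 to 2620 with 0.1% and 944 to 2188 with 0.5% phloridzin, and the diet comparison gave 0 in all of them.

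Falls under 1.5-fold numbered 1121, but 729 with median centring and 1695 with array weights. Changes of 2-fold or more numbered 315, but 500 with a pseudocount of 1. The cause of these shifts was not tested. With the replicate number as a block the pooled comparison called 3103 genes, 2143 under 1.5-fold, and the single groups 1923, 2368 and 1856. Deviations of same-numbered mice correlated at −0.41 to 0.50 over 30 pairs, 13 of them over 0.1, and the block ended the calls of 4 of 209 named genes, Ndufb3, Cat, Mlxipl and Thra.

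Of these 209 genes, 202 kept their call with quantile normalization, 185 with median centring, 199 with a pseudocount of 1, 195 without the filter and 167 with averaged probe sets, and none changed sign. Uncalled genes near 0 did change sign: Irs1 (0.014 with median centring, −0.059 to 0.00096 without 1 array), Hprt (0.0049 with median centring), Pdia6 (0.0061 with median centring, −0.098 to 0.013 without 1 array) and Spats2l (−0.049 with array weights, −0.027 to 0.13 without 1 array). Differences under about 0.24 log2 units are within the median interval of the pooled comparison.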
